A study of Mus musculus with 15 samples.

Results

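Fhit, Wwox, Ctnna3, Macrod2, Immp2l and Lrp1b are very long genes of common fragile sites, and their chromatin was followed here after social defeat in C57BL/6 mice, in the nucleus accumbens, which lies in the ventral striatum and takes part in reward. The 6 genes were chosen by name, as the rows of the authors' H3 tables that carry these symbols and the ACF1 segments that overlap the bounds these tables give. They are 6 of the 7814 genes named in any of the 6 H3 tables, and hold 55 of 49408, 42 of 17538 and 36 of 16273 listed occupancy positions in 3 comparisons, which set susceptible mice against control mice, resilient mice against control mice and resilient mice against susceptible mice. The numbers of these tables were known when the genes were chosen, and Fhit was singled out by its positions in resilient against control. Everything given below on their H3 marks is therefore a description, with no test.

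The groups were susceptible mice, which avoided a CD1 mouse after 10 days of defeat by CD1 aggressors, resilient mice, which went through the same defeat and did not avoid it, and control mice of the same strain. Neither age nor sex is given in the labels. Punches of the nucleus accumbens from 10 mice were pooled for each replicate, 48 hours after defeat ended. Of the 15 samples, the 3 H3 samples (chromatin cut with micrococcal nuclease, which digests DNA between nucleosomes, then precipitated with an H3 antibody) and the 3 ACF1 samples (sheared chromatin) had files used here. The labels speak of replicates, but there was 1 deposited result per group or pair of groups, so no spread between replicates can be given for any value. Depth is unknown, and pooled tissue cannot tell a change in a cell type's chromatin from a change in its share of the cells. The tissue label could not be checked, since these files measure no RNA.

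A common fragile site is a stretch of the genome that tends to break when DNA replication is slowed. Many such sites lie in genes of extreme length, where replication and transcription both take long and origins of replication are sparse. FHIT and WWOX mark the best studied human fragile sites and are often deleted in tumours, and the mouse genes Fhit and Wwox lie in fragile sites as well. H3 is a core histone, so its occupancy follows where nucleosomes sit along such a gene. ACF1 is the accessory subunit of the ACF remodelling complex, which slides and spaces nucleosomes.

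The 6 genes do different work in the cell. Fhit encodes a hydrolase of dinucleoside polyphosphates, and Wwox an oxidoreductase with WW domains, which bind proline-rich stretches of other proteins. Ctnna3 encodes alpha-T-catenin, which ties cadherin junctions to actin, and Lrp1b a large endocytic receptor of the LDL receptor family. Macrod2 encodes an enzyme that removes ADP-ribose from proteins, and Immp2l a peptidase of the mitochondrial inner membrane.

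On mm9, the build of the files, Fhit runs over 1.61 Mb of chromosome 14 (10382608 to 11994546, minus strand). Wwox runs over 0.913 Mb of chromosome 8 (116963552 to 117876612, plus strand). Ctnna3 runs over 1.55 Mb of chromosome 10 (62920259 to 64466415, plus strand), and a shorter transcript named in the tables starts at 63283803. Macrod2 runs over 1.99 Mb of chromosome 2 (140221166 to 142215786, plus strand), Lrp1b over 2.06 Mb of the same chromosome (40452293 to 42509118, minus strand) and Immp2l over 1.31 Mb of chromosome 12 (41750677 to 43056573, plus strand). Among all genes named in the tables, Lrp1b was number 3 by length, Macrod2 number 4, Fhit number 6, Ctnna3 number 7, Immp2l number 14 and Wwox number 52.

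The 6 genes fell into unlike sets by how many positions they held. Fhit held 56 entries over the 3 occupancy tables and Wwox 32, while Ctnna3 held 16, Macrod2 12, Immp2l 9 and Lrp1b 8, although Lrp1b and Macrod2 are the longest. The tables list positions that the authors had selected, each marked Up or Down with no size, p-value or read count. Up was read as higher H3 occupancy in the group named first, which the files do not state, and with the opposite reading every direction below turns round. All of these entries were of the authors' gene body class. None lay in a promoter class, and the entry nearest to any of the 6 starts was in Fhit, 6.77 kb from its start. A promoter makes up little of a gene this long, so the lack of promoter entries is no finding about these genes. The share of each class over all entries was not worked out.

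**Figure D1:**
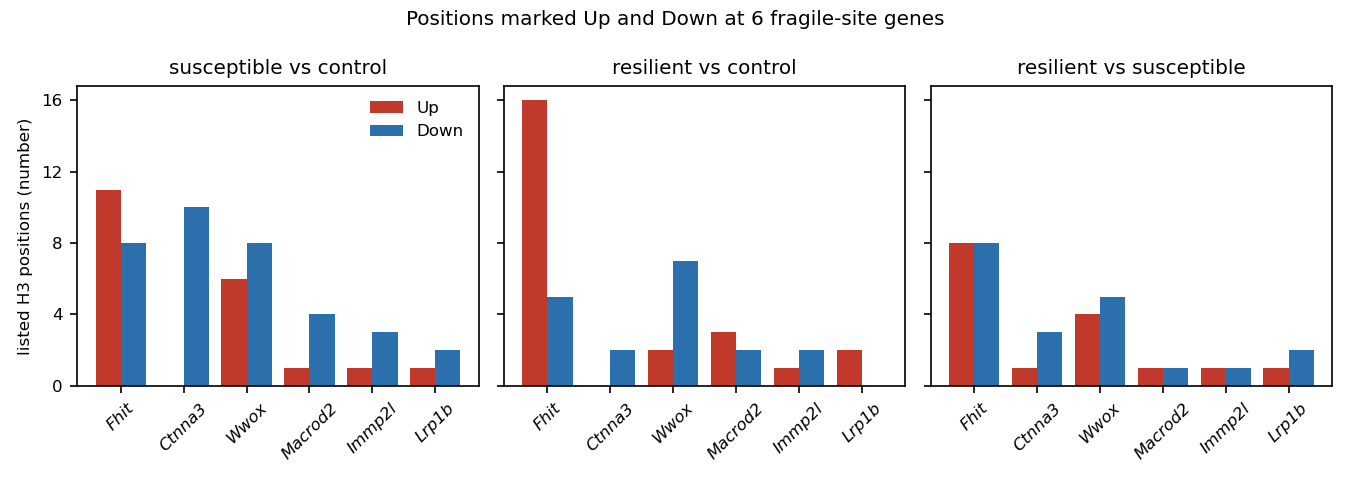
Number of listed H3 occupancy positions (vertical axis) marked Up (red) and Down (blue) at each of the 6 genes, in 1 panel for each pair of groups. Fhit has 16 Up positions in resilient against control, the tallest bar, and Ctnna3 has 10 Down and 0 Up in susceptible against control.

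Susceptible against control set the defeated mice that avoided others against the control mice. All 6 genes held a position in this table, as did 60.2% of all named genes and 87.5% of the 168 other genes of at least 500 kb, so holding one says little about a gene of this length. Together they had 20 Up and 35 Down positions, that is 36.4% Up. Up made up 14.8% of the whole table and 40.4% of it outside chromosome 1, which holds a great excess of Down positions in this comparison. In the other long genes outside that chromosome it was 38.7%. None of the 6 genes lies on that chromosome.

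Within that total, the genes differed in direction. Fhit held 11 Up and 8 Down positions (57.9% Up), against 39.0% Up over all 800 positions of chromosome 14. Wwox held 6 Up and 8 Down, and 38.0% of the 998 positions of chromosome 8 were Up. Ctnna3 held 10 positions, all Down, on a chromosome where 43.5% of 865 positions were Up. Macrod2 had 1 Up and 4 Down, Immp2l 1 Up and 3 Down, and Lrp1b 1 Up and 2 Down. Fhit was thus the only member of the 6 with more Up than Down in this table. Without it the other 5 had 9 Up and 27 Down (25% Up), beside 38.7% Up in the other long genes outside chromosome 1. Ctnna3 alone gave 10 of those 27 Down.

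Resilient against control set the defeated mice that did not avoid others against the control mice. All 6 genes again held a position, as did 49% of all named genes and 86.9% of the other long genes. They had 24 Up and 18 Down positions (57.1% Up), where Up made up 38.3% of the table and 44.3% of the 476 positions in other long genes outside chromosome 1. Fhit alone gave 16 of the 24 Up positions and 5 of the 18 Down. The rest came to 8 Up and 13 Down (38.1% Up), close to the share of the table.

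Fhit had 76.2% Up positions in this comparison, the values for which it was chosen, on a chromosome with 41.2% Up among 827 positions. Wwox, the other gene rich in positions, held 2 Up and 7 Down (22.2% Up), on a chromosome with 35.7% Up among 967 positions, and 9 positions are too few to read a contrast with Fhit from. Ctnna3 had 2 Down positions and no Up, Immp2l 1 Up and 2 Down, Macrod2 3 Up and 2 Down, and Lrp1b 2 Up and no Down. With 2 to 5 positions each, the directions of these 4 genes rest on very few entries.

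Resilient against susceptible compared the outcomes of the same defeat. All 6 genes held a position, as did 45.5% of all named genes and 88.7% of the other long genes. They had 16 Up and 20 Down positions (44.4% Up), beside 48.9% Up in the table and 52.8% in the other long genes outside chromosome 1. Fhit had 8 Up and 8 Down. Wwox had 4 Up and 5 Down, Ctnna3 1 Up and 3 Down, Lrp1b 1 Up and 2 Down, and Macrod2 and Immp2l each had 1 Up and 1 Down. The 3 tables share groups pairwise, so they are not independent looks at a gene, and whether the direction at Fhit differed between them was not tested.

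The positions of Fhit were spread over the whole gene. In susceptible against control the Up positions ran from 29.8 to 1452 kb from the gene start, and the Down positions from 219 to 1573 kb. The Up positions of resilient against control ran from 6.77 to 1398 kb, whereas the 5 Down positions stood at 272, 509, 571, 627 and 628 kb. With the gene divided into 3 equal stretches from its start, Up and Down there numbered 7 and 2, then 5 and 3, then 4 and 0. The same stretches held 1 Up and 4 Down, 4 Up and 1 Down, and 3 Up and 3 Down in resilient against susceptible, and 4 Up and 3 Down, 3 Up and 4 Down, and 4 Up and 1 Down in susceptible against control. The stretch next to the start of Fhit thus carried mostly Up entries in resilient against control and mostly Down entries in resilient against susceptible. These are few entries in 1 of 3 stretches, and the Up entries of resilient against control are those for which Fhit was chosen. No contrast is read from them.

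Within a table, neighbouring positions in Fhit mostly stood far apart. The median distance from 1 to the next was 79.8 kb in susceptible against control, 41.5 kb in resilient against control and 100.01 kb for resilient against susceptible, and the shortest was 1.18 kb. At most 4 positions fell within any 100 kb. No pair of neighbours within 1 kb was found in any of the 6 genes within a single table. Entries of different tables could lie closer. In Fhit, 11423122 was Down in resilient against control and 11423162 was Up in resilient against susceptible, less than 1 kb apart. Fhit also held the single nucleosome shift listed for the 6 genes, of -70 bp in resilient against control, at position 11469742 of chromosome 14, 525 kb from the gene start. A shift was listed there for 1.96% of all named genes and 6% of the 150 other long genes outside chromosome 1. No shift was listed for the 6 genes in susceptible against control, where 7.31% of all named genes and 8.67% of those long genes held one. There was none in resilient against susceptible either, where the shares were 1.63% and 4.67%.

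**Figure D2:**
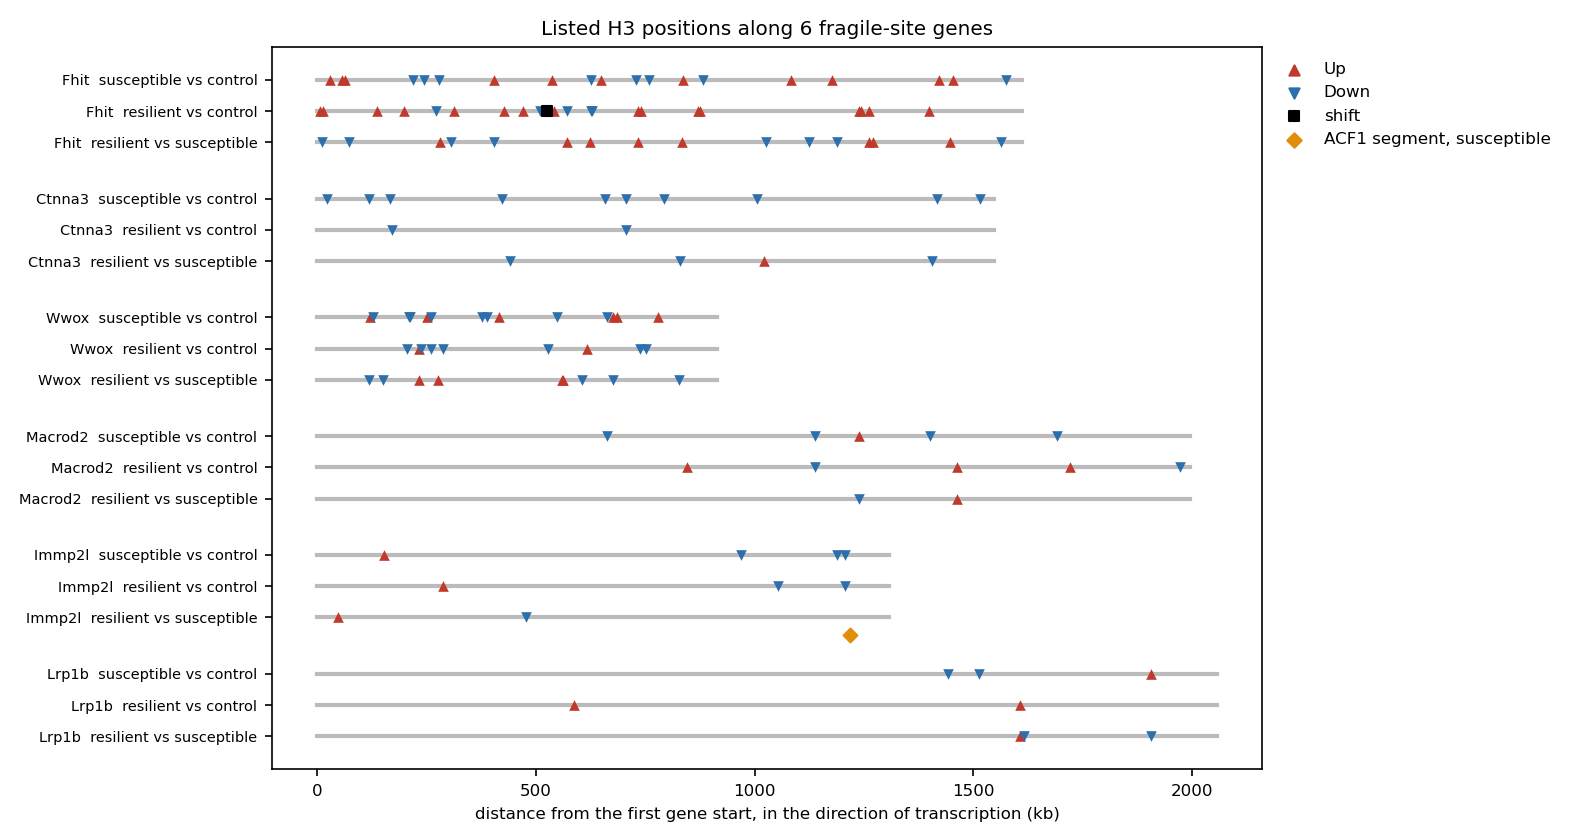
Every listed position along the 6 genes, drawn to scale in kb from the gene start (horizontal axis), with a line for each gene and pair of groups; triangles pointing up are Up, triangles pointing down are Down, the square is the shift and the diamond the ACF1 segment. Fhit and Wwox are filled along most of their length, while Macrod2 is empty before 664 kb and Lrp1b before 587 kb.

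Wwox, the shortest of the 6, was the most densely filled of them in susceptible against control. Its positions began 119 kb into the gene and ended at 827 kb, and the median distance between neighbours was 27.6 kb in susceptible against control, 27.5 kb in resilient against control and 57.6 kb in resilient against susceptible. Of the 9 positions in resilient against control, 5 lay within 100 kb, at 206, 234, 238, 261 and 288 kb from the start, and the one at 234 kb was Up while the other 4 were Down. Of 3 equal stretches of the gene, the opening one held 2 Up and 4 Down positions in susceptible against control, the middle one 1 Up and 3 Down and the closing one 3 Up and 1 Down. The closing stretch held 1 Up and 2 Down in resilient against control, and 0 Up and 2 Down in resilient against susceptible. These are few entries, and no contrast along the gene is read from them.

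Ctnna3 held its 10 Down positions of susceptible against control from 22.3 to 1515 kb after the start of its longer transcript, with 4, 4 and 2 in 3 equal stretches of the gene and no pair closer than 46.7 kb. Its 2 positions in resilient against control were Down at 172 and 705 kb. The one at 705 kb (63625212 of chromosome 10) was the same coordinate as a Down position of susceptible against control, and these tables share the control library.

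Macrod2, Immp2l and Lrp1b had long stretches without any entry. Macrod2 held none in its first 664 kb and Lrp1b none in its first 587 kb, over all 3 tables. In Immp2l the 3 Down positions of susceptible against control lay between 968 and 1207 kb and the 2 Down positions of resilient against control at 1053 and 1207 kb, towards the end of the gene. Its single Up positions stood nearer the start, at 153 kb in susceptible against control, 287 kb in resilient against control and 47.6 kb in resilient against susceptible. The Down position of resilient against susceptible, at 476 kb, did not lie towards the end. The Down position at 1207 kb is the same coordinate in both comparisons with control mice.

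Some coordinates appeared in a pair of the tables. In Fhit, 11589762 of chromosome 14 was Up in susceptible mice against control mice and Down in resilient mice against susceptible mice, tables that share the susceptible mice. Positions 10734082 and 11261662 of the same gene were Up in both tables of resilient mice, and 11367642 was Down in both tables that use the control library. Wwox had the same 3 kinds of entry, with 117639982 of chromosome 8 marked as the first, 117197142 as the second and 117224362 as the third. Macrod2 had all 3 kinds too, at 141460022, 141682822 and 141360002 of chromosome 2 in that order. Lrp1b had the first kind at 40602692 and the second at 40901952 of that chromosome. The shared coordinates of Ctnna3 and Immp2l, given above, were of the third kind. The share of such coordinates over all listed positions was not worked out. A group that 2 tables share can by itself give such pairs, so no order of the groups is read from them.

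Per length, Fhit and Wwox lay high among long genes in each table. In susceptible against control Wwox held 15.3 positions per Mb, Fhit 11.8, Ctnna3 6.47, Immp2l 3.06, Macrod2 2.51 and Lrp1b 1.46. Among the 156 genes of at least 500 kb outside chromosome 1, in order of positions per Mb, Wwox was number 4, Fhit number 10 and Ctnna3 number 38, while Immp2l was number 75, Macrod2 number 84 and Lrp1b number 116. The median of the 6 genes was 4.77 per Mb, against 3.24 for the 168 other long genes and 2.65 for the 150 of them outside chromosome 1.

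Fhit held 13.0 positions per Mb in resilient against control and was number 7, and Wwox held 9.86 and was number 20. The other 4 lay between 0.972 per Mb in Lrp1b and 2.51 in Macrod2, at numbers 85 to 131. Ctnna3, at 1.29 per Mb, was number 122. The median of the 6 was 2.40 per Mb, against 3.25 for the 168 other long genes and 3.10 for the 150 outside chromosome 1, of which the middle 50% ran from 1.39 to 5.96.

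In resilient against susceptible, Fhit held 9.93 and Wwox 9.86 per Mb, at numbers 11 and 12, and the other 4 between 1.00 and 2.59, at numbers 85 to 134. The median of the 6 was 2.06 per Mb, against 3.35 for the 168 other long genes and 3.04 for the 150 outside chromosome 1. Fragile-site genes as a set were therefore not uniformly rich in positions, and their median stood above that of other long genes in 1 comparison and below it in 2. Against other genes of at least 1000 kb the median of the 6 was 1.13 times theirs in resilient against susceptible. In susceptible against control the median of the 6 was 0.762 times the median of their own flanks. Even so, 3 of the 6 held more positions per Mb than their flanks there, though Macrod2, at 2.507 inside and 2.5 outside, was all but level. The order of such medians thus depends on what the genes are set beside. By number of positions outside chromosome 1, whatever the gene length, Fhit was number 2 in susceptible against control (19), number 3 in resilient against control (21) and number 4 in resilient against susceptible (16).

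**Figure D3:**
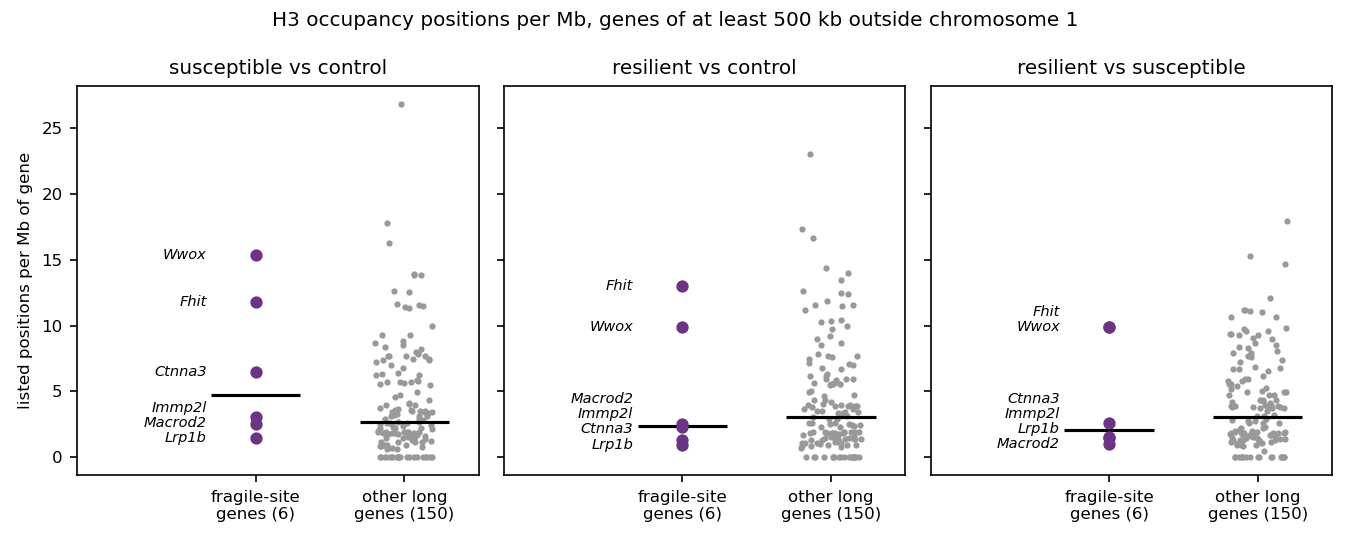
Listed H3 occupancy positions per Mb of gene (vertical axis) for the 6 fragile-site genes and for the 150 other genes of at least 500 kb outside chromosome 1; each point is a gene and each bar the median of its set. Fhit and Wwox sit at 9.86 per Mb or more in each panel, and Macrod2, Immp2l and Lrp1b at 3.06 or less.

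The surroundings of Fhit were about as rich in positions as the gene itself. In susceptible against control the gene held 11.8 per Mb and the 1 Mb on each side of it 9.50. The values were 13.0 and 14.5 in resilient against control, and 9.93 and 10.0 in resilient against susceptible. Outside chromosome 1 the listed genome as a whole held 6.76, 6.56 and 6.09 positions per Mb in these tables, so gene and flanks were both above it. In resilient against control the flanks of Fhit had 17 Up and 12 Down positions, with 10 Up and 4 Down on the side of the gene start, where Ptprg, a receptor tyrosine phosphatase gene, is the next protein-coding gene in the RefSeq annotation of GRCm38.p6. Ptprg held 3 Up positions and no Down in that table, 2 Up and 1 Down in susceptible against control, and 1 Up and 2 Down in resilient against susceptible. In susceptible against control, where Fhit had 11 Up and 8 Down, its flanks had 6 Up and 13 Down.

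Wwox held more positions than its flanks in susceptible against control, with 15.3 per Mb inside and 8.50 outside, and in resilient against susceptible, with 9.86 and 7.50. It held fewer in resilient against control, with 9.86 inside and 14.0 outside. Ctnna3 was emptier than its flanks in all 3 tables, most of all in resilient against control, with 1.29 per Mb inside and 9.00 outside. The flanks of Ctnna3 also did not share its direction in susceptible against control, with 10 Up and 7 Down positions beside 10 Down in the gene. Macrod2, Immp2l and Lrp1b and their flanks were both sparse, at 0.972 to 3.06 per Mb inside and 2.50 to 4.50 outside.

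**Figure D4:**
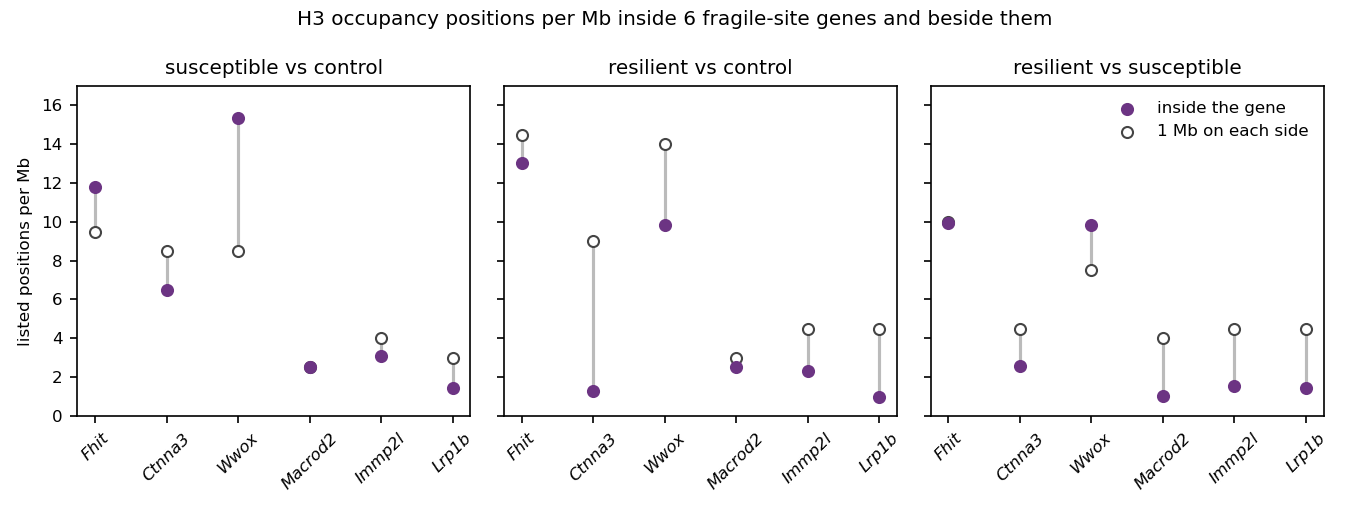
Listed H3 occupancy positions per Mb (vertical axis) inside each of the 6 genes (filled) and in the 1 Mb on each side of it (open), in 1 panel for each pair of groups. For Fhit both points lie between 9.50 and 14.5 in every panel, and for Macrod2, Immp2l and Lrp1b both lie at 4.50 or below.

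Emptier genes than flanks were usual for long genes. Of the 150 others outside chromosome 1, 28 held more positions per Mb than their flanks in susceptible against control, 32 did so in resilient against control, and 35 did in resilient against susceptible, that is 18.7%, 21.3% and 23.3%. Of the 6 fragile-site genes it was 3, 0 and 1, and Macrod2 was among the 3 by 2.507 per Mb inside against 2.5 outside. Across the 156 long genes, positions per Mb in the gene and in its flanks had Spearman correlations of 0.27, 0.33 and 0.32 in the 3 tables, and positions per Mb and gene length -0.18, -0.20 and -0.28. These are descriptions across genes measured in the same samples, and such genes are not independent of each other.

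ACF1 segments were few at the 6 genes. The segment files divide each chromosome into 2 states in steps of 200 bp with no score, and the rarer state, E2, is called a segment here, since the files do not say which state is binding. The susceptible file had 1 segment over these genes, the resilient file none and the control file none. A segment was present in 2.53% of all named genes and 10.7% of the other long genes in susceptible mice, in 1.47% and 4.76% in resilient mice, and in 1.89% and 7.74% in control mice, so 1 or 0 of 6 genes is not far from the background. The single segment lay in Immp2l, from 42969201 to 42970000 of chromosome 12, 800 bp wide and 1219 kb into the gene. The nearest listed H3 position in Immp2l was 42957972, 11.2 kb away, which was Down in both tables that use the control library.

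For the genes without a segment, the nearest stood 219 kb away or more. The files hold only 1133 segments in susceptible, 716 in resilient and 749 in control mice over the whole genome. Long distances therefore say little about a gene, and those of other genes were not worked out. Around Fhit it stood 922 kb from the gene bounds in susceptible, 1263 kb in resilient and 219 kb in control mice. Around Wwox it stood 1053 kb away in susceptible, 16690.2 kb in resilient and 1305 kb in control mice, and around Ctnna3 2976, 3534 and 899 kb. The nearest segment of any file was 4759 kb from Macrod2 and 3127 kb from Lrp1b, both in susceptible mice. The H3 positions of Fhit and Wwox had to lie outside the ACF1 segments, since no segment overlapped these genes. The share of all listed H3 positions outside segments was not worked out, so nothing about ACF1 is read from this.

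A list of 30 further long genes, drawn up for their length and for ties to fragile sites that were not checked here, had 26 members named in the tables. Over all 26, 7.09% of positions were Up in susceptible against control, where the whole table had 14.8%, 49.4% were Up in resilient against control, and 59.2% were so for resilient against susceptible, comparisons that share the resilient mice. Of these, 23 were at least 500 kb long and 24 lay outside chromosome 1. The 24 held 26 Up and 40 Down positions in susceptible against control (39.4% Up), 34 Up and 33 Down in resilient against control (50.7%) and 43 Up and 25 Down in resilient against susceptible (63.2%), beside 38.7%, 44.3% and 52.8% in other long genes and 40.4%, 38.3% and 48.8% in the tables outside that chromosome. Outside chromosome 1, the Up share of the list was near that of other long genes in susceptible against control. It was above theirs in both comparisons of resilient mice. Those other long genes include the 21 of these 24 that are at least 500 kb long, so the sets overlap. The shares also rest on few positions, and Prkg1 alone gave 6 of the 43 Up in resilient against susceptible. No contrast is read from them. The median of the 24 was 2.13, 1.81 and 1.98 positions per Mb.

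Of those 24, the genes with at least 5 positions were few. In susceptible against control Sdk1, an immunoglobulin-type adhesion gene of synapses, held 3 Up and 8 Down, Cdh13, which encodes T-cadherin, 2 Up and 7 Down, the cyclic AMP phosphodiesterase gene Pde4d 2 Up and 4 Down, and the secreted-protein gene Nell1 and the neurexin-like Cntnap2 3 Up and 2 Down and 2 Up and 3 Down. For resilient against control, Sdk1 held 1 Up and 9 Down, Cdh13 5 Up and 7 Down, Cntnap2 4 Up and 3 Down and Nell1 3 Up and 3 Down. In resilient against susceptible Prkg1, a cyclic GMP-dependent kinase gene, held 6 Up and no Down, Sdk1 5 Up and 4 Down, Nell1 4 Up and 4 Down, Pde4d 4 Up and 3 Down and Cdh13 4 Up and 2 Down. Sdk1 held 10.3 positions per Mb in resilient against control, beside 9.86 in Wwox, and the marks of both were mostly Down there.

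The 2 list genes on chromosome 1, Pard3b and Esrrg, held 1 Up and 195 Down and 2 Up and 145 Down positions in susceptible against control. That chromosome held 66.4% of the table, and the same genes held 8 and 6 positions in resilient against control. Of 12 relatives of the 6 genes (other catenins, LDL receptor family genes and the paralogs of Macrod2 and Immp2l), 5 were named in the tables, none with 5 positions. Ctnna2, the alpha-catenin of neurons, is itself 1.10 Mb long and held 2 Down positions in susceptible against control, where Ctnna3 held 10, then 1 Down in resilient against control and 1 Up in resilient against susceptible.

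By the 6 numbers of Up and Down positions per Mb in the 3 tables, the gene most like Fhit among the 155 other long genes outside chromosome 1 was Fam155a, which encodes a subunit of the NALCN sodium leak channel and is 0.565 Mb long, at a Euclidean distance of 3.49 per Mb, where the median gene stood at 12.4. Fam155a held 3 Up and 2 Down positions in susceptible against control, 5 Up and 2 Down in resilient against control, and 4 Up and 2 Down in resilient against susceptible. Next came Nlgn1, a postsynaptic adhesion gene, at 7.21, and Dscam, a neural adhesion gene, at 7.39. Wwox stood at 9.79 and number 26, nearer than the median gene, and Macrod2, Immp2l, Ctnna3 and Lrp1b at 12.8 to 13.5, numbers 84 to 113. The distance uses the values of resilient against control for which Fhit was chosen, and it rests on few entries per gene. Nothing about fragile-site genes as a set is read from this order.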

How the data were processed

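The authors' deposited H3 tables list selected positions with a direction or a shift in bp (6 tables), and their deposited ACF1 files list segments with a state (3 files); none holds a score, p-value or read count. The submitters' processing notes name CASAVA 1.8.2 and mm9; an aligner, a caller and a selection rule are not given in the sources. The pair of groups of a table was read from the name under which it was deposited.

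From these files, positions were counted by the gene symbol the tables give, and gene length was taken from the widest merged bounds of a symbol. Genes of at least 500 kb were called long; genes with no entry in any table are not among them. Flanks were 1 Mb on each side. Segments were counted with an overlap of at least 1 bp. Positions are 1-based. Neighbouring genes were named from the RefSeq annotation of GRCm38.p6, in which all 6 symbols matched; no coordinates were taken from it. Sequences at the positions are not shown, since no genome of the build was used here.

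The genes, the lists and the alternatives were chosen with earlier results of these data known. All 6 genes are named in each table, list genes where they held at least 5 positions, and the 3 genes nearest to Fhit by positions per Mb. No test was run, because each pair of groups has 1 table. Counting was checked on simulated positions. Python 3.11.15, numpy 2.4.6, pandas 2.3.3 and matplotlib 3.10.9 were used.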

Additional observations from a re-analysis of the deposited data

How the results depend on the processing

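The numbers of positions, shifts and segments were recomputed under each alternative; of 39 values, 32 stayed within 1.5 times the reported one on the same side, 4 moved further and 3 changed direction. Taking positions by coordinate left the numbers and directions at the 6 genes and at Fhit as reported. Joining neighbours within 1000 bp or keeping the gene body class alone could change nothing. No neighbours in the same table lay that close, and all entries were of that class. A minimum segment length likewise had nothing to remove in resilient and control mice. Such values are counted among the 32, so that number says less than it seems. Without Fhit, a choice made after seeing the data, the positions numbered 36, 21 and 20 in susceptible against control, resilient against control and resilient against susceptible, and in resilient against control most were then Down, with 8 Up and 13 Down where all 6 genes had 24 Up and 18 Down. The median per Mb of the 6 genes was 1.47, 0.739 and 0.615 times that of the 168 other long genes. Set against the median of the flanks, also a later choice, the ratio was 0.762 in susceptible against control. It was 0.356 for resilient against control and 0.458 for resilient against susceptible. In susceptible against control the median of the 6 genes thus stood above that of other long genes and below that of the flanks. Gene by gene, 3 of the 6 held more positions per Mb than their own flanks there, of which Macrod2 was all but level with its flanks. Against genes of at least 1000 kb the ratio was 1.13 in resilient against susceptible. The order of the 6 genes and other long genes there depends on the length asked for, and the cause was not tested. With segments of at least 1000 bp, 0 were left over the 6 genes in susceptible mice, since the one in Immp2l is 800 bp wide. No paired analysis was possible because 1 sample is listed for each group and target and the files used hold no replicate values. Depth is unknown, so listed positions cannot be set against reads.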

Other observations

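Genes that lie inside the 6 long genes were not named in the tables. In the RefSeq annotation of GRCm38.p6, Lrrtm3 lies within Ctnna3, Flrt3 within Macrod2 and Lrrn3 within Immp2l, all 3 encoding neuronal leucine-rich repeat proteins, and 0 occupancy positions carried their names. Names were matched by symbol, so a gene listed under another symbol would count as without a position. No share over all protein-coding genes was worked out to set beside the numbers given here. Of the 12 protein-coding genes next to the 6, 5 held a position. Beside Ptprg these were Reep3 next to Ctnna3, with 1 Up and 1 Down in resilient against control, Sel1l2 next to Macrod2, with 1 Up in susceptible mice against control mice and 1 Down in resilient mice against susceptible mice, Kif16b on the other side of Macrod2, with 1 Up in each table of resilient mice, and Kynu next to Lrp1b, with 1 Up in resilient against control.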
